A study of Homo sapiens with 6 samples.

Results

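A set of 10 genes used as markers of the fetal liver and of liver cancer was followed in RNA-seq counts of HepG2 cells, namely AFP, GPC3, DLK1, EPCAM, H19, SPINK1, LIN28B, IGF2BP1 and IGF2BP3, with ALB as the marker of the mature hepatocyte. They were picked by name, and all 10 were found among the 59608 genes listed in the count table. HepG2 is an established human liver tumor line, now usually classed as hepatoblastoma. In both groups endogenous VEZF1, a zinc finger transcription factor, was silenced by CRISPR-Cas9 with a lentiviral sgRNA, and then either the wild-type protein (VEZF1-WT) or a form with serines 123 and 124 changed to alanine (VEZF1-2A) was put back, so that the pair of serines that carry O-GlcNAc, a single sugar on serine or threonine, is lost in VEZF1-2A. Each group had 3 libraries. No library of unedited cells or of cells without re-expression was analysed here, so a level shared by both groups cannot be set against normal VEZF1. Whether the edited cells were 1 clone or a pool, and whether the replicates were separate cultures, was not given in the sources used here, and p-values measure only the spread between these libraries.

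The fetal liver makes alpha-fetoprotein (AFP) in bulk and switches to albumin (ALB) after birth. Many liver tumors turn AFP on again, together with other genes that the adult organ keeps silent, which is why such genes are called oncofetal. The genes followed here fall into secreted proteins (AFP, ALB and the trypsin inhibitor SPINK1), cell surface proteins (the glypican GPC3, the Notch pathway ligand-like protein DLK1 and the adhesion molecule EPCAM), the imprinted noncoding RNA H19, and RNA-binding proteins of early development (LIN28B, IGF2BP1 and IGF2BP3).

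ALB and AFP are neighbours on the plus strand of chromosome 4 of GRCh38, ALB from 73397114 to 73421482 and AFP from 73431138 to 73456174, with 9655 bases between them. The start used by RefSeq lies inside each of these spans. The 250 bases before each RefSeq start (GRCh38.p14, plus strand) are shown because the genes are relatives under liver-specific promoters. Whether these sequences bear on the levels of the genes in these libraries was not tested. Capitals mark the letters TATAAA and CCAAT, the cores of the TATA and CCAAT boxes of many promoters, searched on both strands (a CCAAT on the other strand reads ATTGG).
ALB promoter, chr4:73404037-73404286: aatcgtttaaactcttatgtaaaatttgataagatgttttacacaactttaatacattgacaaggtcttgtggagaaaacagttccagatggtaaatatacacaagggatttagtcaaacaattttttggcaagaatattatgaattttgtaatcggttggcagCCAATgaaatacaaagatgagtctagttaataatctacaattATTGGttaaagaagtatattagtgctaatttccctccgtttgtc
AFP promoter, chr4:73435971-73436220: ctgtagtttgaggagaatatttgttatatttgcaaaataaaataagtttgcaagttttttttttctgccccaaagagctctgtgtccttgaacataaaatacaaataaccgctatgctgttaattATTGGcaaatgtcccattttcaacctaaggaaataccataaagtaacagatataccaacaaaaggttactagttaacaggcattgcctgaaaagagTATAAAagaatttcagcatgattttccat
In the ALB window CCAAT begins 86 bases before the start and ATTGG 44 bases before it, and TATAAA was not found. In the AFP window TATAAA begins 29 bases and ATTGG 125 bases before the start. Of 35116 RefSeq promoter windows of the same length, 10.7% hold TATAAA and 32% hold CCAAT on either strand. Both windows are poor in G and C, with 30% in ALB and 31.6% in AFP. A promoter entry was at hand for 6 of the 10 genes (AFP, ALB, SPINK1, H19, LIN28B and IGF2BP3). VEZF1 is known to bind runs of G, and GGGGGG on either strand was in none of the first listed windows of these 6 genes, while 17.6% of all windows hold it.

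The let-7 microRNAs are shown because LIN28B is known to block their maturation and because let-7 in turn is known to repress LIN28B and the IGF2BP mRNAs. The seed, bases 2 to 8, is in capitals. All 9 mature RNAs of the family in the RefSeq table (let-7a to let-7g, let-7i and miR-98) share the seed GAGGUAG, and 3 of them are given here, 5′ to 3′.
let-7a-5p: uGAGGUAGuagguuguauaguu
let-7d-5p: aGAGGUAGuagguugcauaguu
miR-98-5p: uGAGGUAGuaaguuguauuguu
The reverse complement of the seed, CTACCTC, was searched on the transcript strand in the 3′ untranslated regions of GENCODE 29, taking the principal transcript of each gene. It occurred 4 times in LIN28B (4549 bases), 4 times in IGF2BP1 (6206 bases) and 1 time in IGF2BP3 (2153 bases). No match was found in AFP, ALB, SPINK1, GPC3, DLK1 or EPCAM, whose untranslated regions run from 93 to 3328 bases. Of 18929 genes, whatever the length of the region, 8.6% hold a match at all and 0.0634% hold 4 or more. The regions of these 3 genes are long. Among untranslated regions within 1.5-fold of the length, 22.6% hold a match at all for LIN28B, 28.3% for IGF2BP1 and 12.3% for IGF2BP3. The share with 4 or more among regions of like length was not computed. The first match of each of the 3 genes is printed with its flanks, the 7 bases in capitals.
LIN28B, chr6:105078813-105078840, plus strand: cccggttgcaaagtCTACCTCatgcaag
IGF2BP1, chr17:49051062-49051089, plus strand: gtgtgcgaagtaaaCTACCTCaaggtat
IGF2BP3, chr7:23311789-23311816, minus strand: gcatttttactcaaCTACCTCaggtatt

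Read totals ran from 28756765 to 57199396 counts per library, and mitochondrial genes took 7.94% to 8.55%. Among counts of 1 to 10, between 81.0% and 83.0% were even, so low values moved mostly in steps of 2. No pair of libraries of a group was a copy, since chi-square per degree of freedom, with counts halved, was 3.46 or more. VEZF1 had 59.3, 45.6 and 40.0 CPM (counts relative to the library total, scaled with edgeR's TMM factors) in VEZF1-WT. With VEZF1-2A it had 46.2, 48.6 and 38.9 CPM, and these ranges overlapped. A count per gene does not separate the re-expressed from the endogenous transcript. Hepatocyte identity was partial. Of 16 adult hepatocyte genes, 8 had enough counts to be tested, led by the secreted protease inhibitor SERPINA1 (2530 to 3254 CPM), while CYP1A2, ADH1B, TDO2 and G6PC stayed under 10 counts in every library. The summed CPM of this list was 3524 to 4138 in VEZF1-WT and 3585 to 4530 in VEZF1-2A.

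Between VEZF1-WT and VEZF1-2A, none of the markers differed beyond the spread between replicates. Of the 10 genes, 9 passed the filter on low counts (edgeR's filterByExpr), and H19 did not. In edgeR's quasi-likelihood test 0 of these 9 had an adjusted p-value under 0.05 (background 0% of 19111 genes), and 0 had an unadjusted p-value under 0.05, where the background was 2.13% (0.832% higher in VEZF1-WT and 1.3% lower). For none of the 9 did the CPM of one group lie wholly above that of the other, as it did for 7.36% of all genes tested. The median log2 fold change, VEZF1-WT over VEZF1-2A, was −0.02 over the 9 genes and 0.00 over all genes, with 4 of the 9 above 0 and 5 below. The 95% intervals were narrow for most of them. They lay within a 1.5-fold change either way for 7 genes (ALB, GPC3, DLK1, EPCAM, LIN28B, IGF2BP1 and IGF2BP3). AFP and SPINK1 had wider intervals, so for them a change of that size was not excluded in this fit, which leaves out the replicate number.

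**Figure D1:**
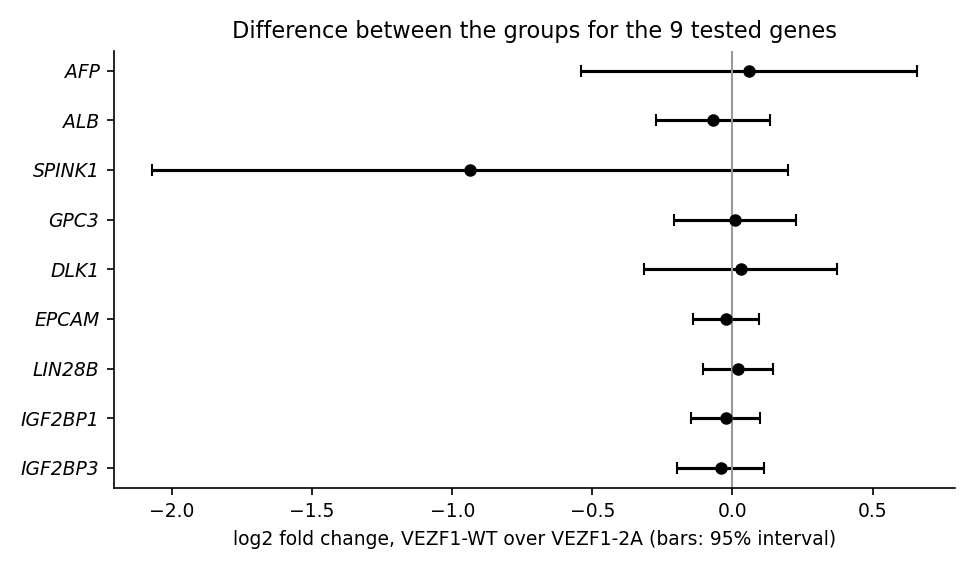
Log2 fold change of VEZF1-WT over VEZF1-2A (horizontal axis) for the 9 marker genes that passed the filter on low counts, with 3 libraries in each group; points are the fitted values and bars their 95% intervals. All 9 bars cross 0, and those of SPINK1 (−2.07 to 0.20) and AFP (−0.54 to 0.66) are the widest.

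AFP, the serum marker of fetal liver and liver cancer, varied more within the groups than between them. Its CPM was 1928, 2043 and 3643 in VEZF1-WT replicates 1, 2 and 3, against 1763, 2065 and 3482 in the VEZF1-2A replicates taken in that order. The library numbered 3 was the highest in both groups, and the other 4 lay close together. The means of 2538 ± 959 CPM (SD, n = 3) for VEZF1-WT against 2437 ± 918 (SD, n = 3) gave a log2 fold change of 0.06, with a standard error of 0.27 and a 95% interval from −0.54 to 0.66 (edgeR's quasi-likelihood test, unadjusted p = 0.831, adjusted p = 0.9996). The sign rested on single libraries, since the log2 fold change was −0.30 without replicate 3 of VEZF1-WT and 0.41 without replicate 3 of VEZF1-2A. The spread of AFP within groups, an SD of 0.51 on the log2 scale, was larger than that of 94.0% of the genes tested. With the replicate number added to the fit, the log2 fold change of AFP was again 0.06 (edgeR's quasi-likelihood test, unadjusted p = 0.212, adjusted p = 0.9993).

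ALB, the main protein of adult plasma, was steadier. The VEZF1-WT libraries had 3025, 2931 and 3346 CPM and the others 2813, 3672 and 3273. Replicate 2 with VEZF1-2A was the highest library, and the groups overlapped. Its log2 fold change of −0.07 had a standard error of 0.09 (95% interval −0.27 to 0.13). The within-group SD of ALB, 0.15 on the log2 scale, exceeded that of 50.7% of genes. Among the 46 genes within 2-fold of its mean level, ALB included, it exceeded that of 73.9%.

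A ratio taken within a library does not depend on how libraries are scaled. Per kilobase of exon, AFP stood to ALB as 0.683, 0.747 and 1.17 in VEZF1-WT libraries, against 0.672, 0.603 and 1.14. AFP thus outweighed ALB in replicate 3 of each group and in no other library. Between the groups the mean log2 ratio differed by 0.12 (two-sided exact permutation test, p = 0.5, adjusted p = 0.9 over 6 ratios, where 3 against 3 cannot give less than 0.1).

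**Figure D2:**
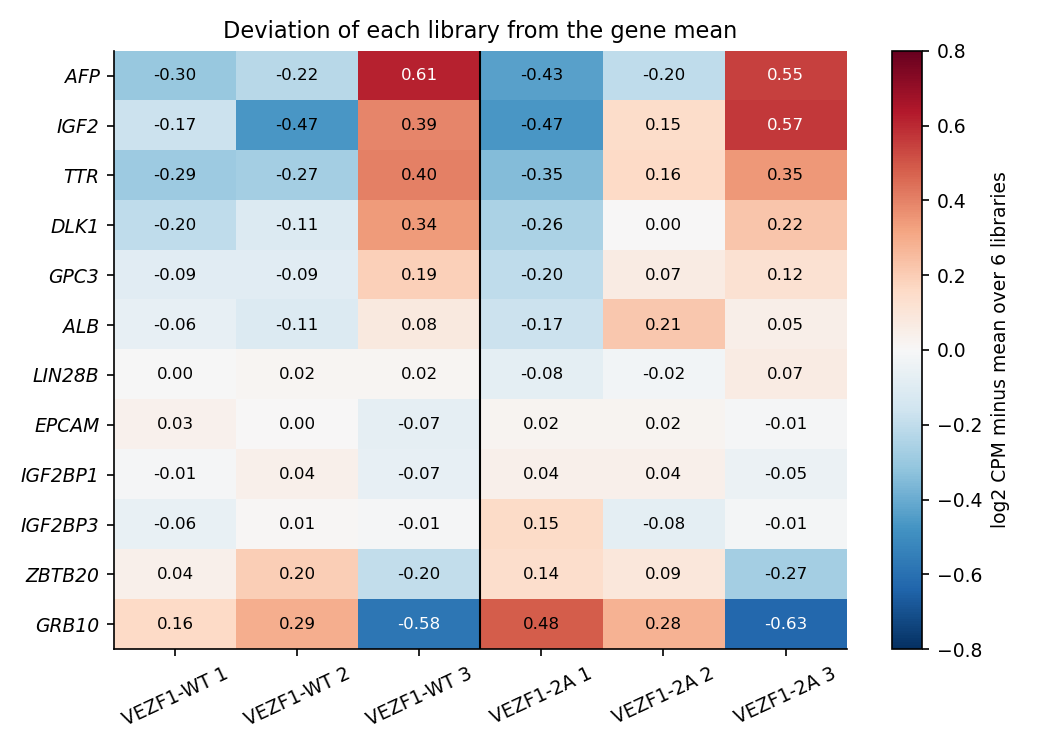
Log2 CPM of each gene in each library minus the gene's mean over the 6 libraries (color and printed value), for the 8 best-expressed marker genes and for IGF2, TTR, ZBTB20 and GRB10, which were added after their values were seen. Replicate 3 of both groups stands above the mean for AFP (0.61 and 0.55) and below it for GRB10 (−0.58 and −0.63), while EPCAM, LIN28B and IGF2BP1 stay within 0.08 of theirs.

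The libraries numbered 3 also stood apart for other liver genes. In both groups they were the highest for IGF2, a fetal growth factor (10820 CPM in VEZF1-WT and 12220 in VEZF1-2A, against 5967 to 9145 in the other 4 libraries), and for TTR, the thyroxine carrier of plasma (41.2 and 39.6 against 24.4 to 34.8). They were the lowest for GC, the vitamin D-binding protein that belongs to the albumin family, with 0 and 2 counts against 24 to 64. As low counts moved mostly in steps of 2, a count of 0 in replicate 3 of VEZF1-WT allows up to 3 steps, or 6 counts, which is 0.105 CPM. ZBTB20, known as a repressor of AFP, had 21.4 and 20.4 CPM in these libraries and 25.3 to 28.2 in the others. These 4 genes were singled out after their values were seen. The libraries were not alike in depth (57199396 and 33966492 counts), and the summed CPM of 12 proliferation genes, 2328 and 2439 in them, was 2406 in replicate 1 of VEZF1-WT, where AFP was low, and 1911 to 2017 in the other 3. The part of any of these in the level of AFP was not tested. The labels do not say what a replicate number stands for.

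The genes whose log2 CPM ran closest to AFP over the 6 libraries were MAGED2, THAP9 and NARS2 (Pearson r = 0.999, 0.996 and 0.995, each across the same 6 libraries). MAGED2 ran from 47.9 to 60.8 CPM, a far smaller range than AFP. For ALB they were AC068205.2, RPS26P47 and SERPINC1, the gene of antithrombin (r = 0.997, 0.984 and 0.984). These genes were not alone, since of the 19111 genes tested 226 had r over 0.95 with AFP and 46 with ALB. Each r rests on only 6 libraries, and why the 2 counts differ was not tested.

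SPINK1, a small secreted trypsin inhibitor used as a tumor marker, was barely detected. The gene lies at chr5:147824568-147831786, minus strand. Its counts were 24, 4 and 28 in VEZF1-WT libraries, against 14, 22 and 40. The second VEZF1-WT library was the lowest, the library numbered 3 with VEZF1-2A was the highest, and the rest of the libraries overlapped. This came to 0.372 ± 0.225 CPM (SD, n = 3) against 0.746 ± 0.401 (SD, n = 3), and the fitted log2 fold change was −0.94, give or take a standard error of 0.51 (edgeR, unadjusted p = 0.0962, adjusted p = 0.9996). Without the filter on low counts the unadjusted p was 0.0140 and the adjusted p 0.914. Leaving out replicate 3 of VEZF1-2A brought the log2 fold change to −0.42, and leaving out replicate 2 of VEZF1-WT brought it to −0.57.

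GPC3, the heparan sulfate proteoglycan that pathologists stain in liver cancer, was the most abundant surface marker. The gene spans chromosome X from 133535745 to 133985594 on the minus strand. The VEZF1-WT libraries had 750, 748 and 911 CPM, against 693, 835 and 867 for VEZF1-2A. The groups covered much the same range. Between them the log2 fold change was 0.01 (standard error 0.10, 95% interval −0.21 to 0.23). Against ALB within a library, the log2 ratio of GPC3 differed by 0.07 between the groups (exact permutation test, p = 0.4, adjusted p = 0.9). Of the 6 glypicans, 4 were tested and none had an unadjusted p under 0.05, with a median log2 fold change of 0.02. Per length, GPC3 stood at 702 ± 57.5 TPM (counts per length of exon, relative to the same sum over all genes; SD over the 6 libraries) and the next, GPC6, at 9.56 TPM. GPC1 had 5.19 TPM, and GPC4 and GPC5 had at most 13 and 10 counts in a library.

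DLK1, which marks hepatoblasts, was low. The VEZF1-WT libraries had 13.9, 14.9 and 20.4 CPM and the VEZF1-2A libraries 13.5, 16.1 and 18.8. Again replicate 3 was the highest in each group, and the ranges overlapped, at a log2 fold change of 0.03 (standard error 0.16). The ratio of DLK1 to ALB differed by 0.08 on the log2 scale (exact permutation test, p = 0.6, adjusted p = 0.9).

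EPCAM, the epithelial adhesion molecule of hepatic progenitors, was the steadiest of the markers. The 3 VEZF1-WT libraries had 339, 332 and 316 CPM, and the VEZF1-2A libraries 336, 337 and 329. The highest and lowest of the 6 libraries differed 1.07-fold, and 3.55% of genes tested had a smaller within-group SD. Among the 883 genes of like level, 15.3% had a smaller SD. Between groups it differed by −0.02 on the log2 scale (standard error 0.05, 95% interval −0.14 to 0.09). Other progenitor and cholangiocyte genes behaved alike, in that 8 of 14 were tested and none of these had an unadjusted p under 0.05, with a median of −0.01. Among them the keratin KRT19 was abundant, from 980 to 1398 CPM, and the transcription factors SOX9 and SOX4 lay between 100 and 133 CPM.

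**Figure D3:**
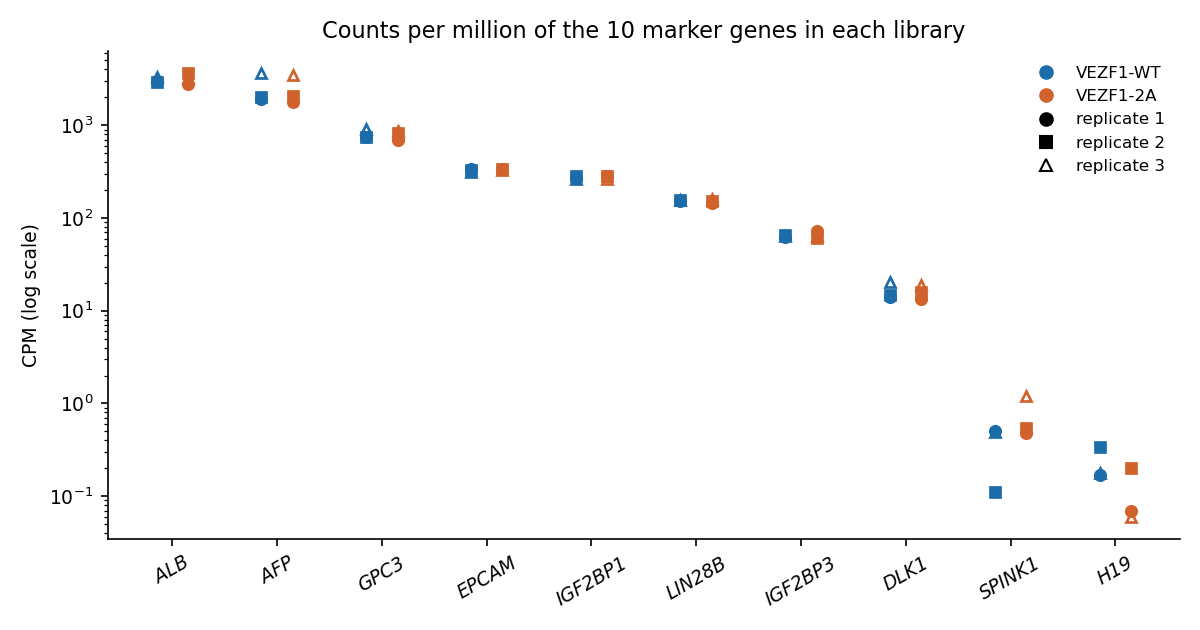
CPM on a log axis for the 10 marker genes, ordered by level per length, with 1 point per library; color gives the group and the symbol the replicate number. Replicate 3 stands above the others for AFP in both groups (3643 and 3482 CPM), the points of EPCAM nearly coincide, and SPINK1 and H19 lie near 1 CPM or below.

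H19, a noncoding RNA that is abundant in fetal liver, was nearly absent. It lies at chr11:1995176-2001470, minus strand, and had 8, 12 and 10 counts in VEZF1-WT, against 2, 8 and 2. The ranges in CPM overlapped, with 0.228 ± 0.0946 (SD, n = 3) against 0.110 ± 0.0783 (SD, n = 3). Tested among all genes with any count, H19 had a log2 fold change of 0.96 and a 95% interval from −0.47 to 2.39 (edgeR, unadjusted p = 0.187). No fetal liver was measured here, so the low count of H19 speaks for these cells only. MIR675, which lies inside H19, and 2 antisense genes share exon positions with it.

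IGF2, whose imprinted domain H19 shares at a distance of 127641 bases, was at the other end of the scale, with 173890 to 609938 counts. The log2 ratio of H19 to IGF2 per kilobase had a mean of −14.03 in VEZF1-WT and −15.39 in VEZF1-2A (exact permutation test, p = 0.2, adjusted p = 0.9). The count of IGF2 is shared with AC132217.2, which covers 70.68% of its exon bases and held 99.8% of the IGF2 count in all, so reads in shared exons stood in both rows. The log2 fold change of IGF2 was −0.18 (standard error 0.25, unadjusted p = 0.484). DLK1 and its imprinted neighbour MEG3, a noncoding RNA that starts 41185 bases farther along chromosome 14, showed the same contrast on a smaller scale, MEG3 having between 0 and 6 counts. Of 13 imprinted genes 9 were tested, with none at an unadjusted p under 0.05 and a median of 0.00. After IGF2, PEG10 (1917 to 2232 CPM) and PEG3 (723 to 1235 CPM) were the most abundant.

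LIN28B, which blocks let-7 maturation, lies on chromosome 6 from 104936616 to 105083332. It had 153, 155 and 155 CPM in VEZF1-WT libraries, against 146, 151 and 161. The VEZF1-2A libraries spanned those of VEZF1-WT, with a fitted log2 fold change of 0.02 (standard error 0.06, 95% interval −0.11 to 0.14). Its paralog LIN28A had 2, 4 and 8 counts in VEZF1-WT and 0 in each VEZF1-2A library, where the same 6 counts would be 0.152 to 0.209 CPM. The VEZF1-WT libraries, at 0.0423 to 0.142 CPM, lay under this limit, and no fold is given.

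IGF2BP1 and IGF2BP3 belong to a family of proteins that bind and stabilise mRNAs such as IGF2 and MYC. IGF2BP1 had 273, 283 and 262 CPM in the VEZF1-WT libraries, against 283, 282 and 266. These groups overlapped, differing by −0.02 on the log2 scale (standard error 0.06, 95% interval −0.15 to 0.10). IGF2BP3 had 62.0, 65.0 and 64.3 CPM in the former and 72.0, 61.2 and 64.0 in the latter. Apart from replicate 1 of VEZF1-2A these lay within a few CPM of each other, and the difference on the log2 scale was −0.04 (standard error 0.07, 95% interval −0.20 to 0.11). Of the exon bases of IGF2BP3, 17.82% are shared with MALSU1 on the opposite strand, which had 44.7% as many counts, and the strand used in counting is not given in the sources used here. Its count is therefore uncertain. For IGF2BP1 and LIN28B the genes with shared exon positions held at most 1.02% of their counts.

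The makeup of the family did not differ between the groups beyond the spread. Per kilobase, IGF2BP1 stood to IGF2BP3 as 3.89, 3.85 and 3.62 in VEZF1-WT libraries, against 3.48, 4.08 and 3.68 (exact permutation test, p = 1, adjusted p = 1). IGF2BP3 stood to IGF2BP2 as 0.234, 0.243 and 0.225 against 0.260, 0.235 and 0.220 (exact permutation test, p = 0.8, adjusted p = 0.96). IGF2BP2 was the most abundant of the 3 per length, at 81.0 TPM, above IGF2BP1 at 72.0 and IGF2BP3 at 19.1.

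The axis of LIN28 and let-7 was read through 11 genes, 9 of which were tested. None had an unadjusted p under 0.05, and the median log2 fold change was −0.02. HMGA2, a chromatin protein of the embryo and a known let-7 target with 4 CTACCTC matches, had 121, 118 and 114 CPM in VEZF1-WT libraries, against 112, 110 and 113. Its groups did not overlap, as in 7.36% of genes, but the log2 fold change was 0.07 (unadjusted p = 0.212); it was picked out after its values were seen. The let-7 host transcript MIRLET7BHG had at most 4 counts in a library and MIRLET7A1HG 38 to 80. Of 11 let-7 hairpin rows 5 were at 0 throughout, and libraries made from poly(A) RNA do not measure the mature microRNAs.

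**Figure D4:**
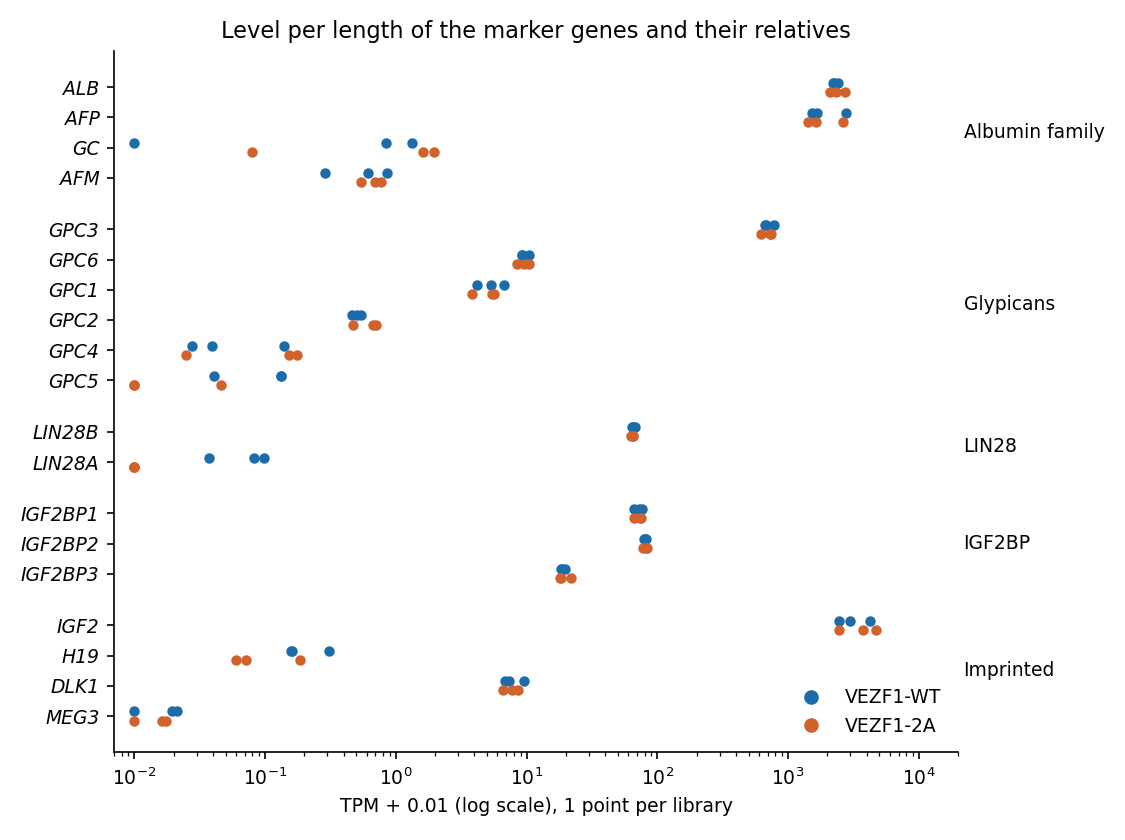
TPM plus 0.01 on a log axis, 1 point per library and color by group, for the marker genes and their relatives. GPC3 (702 TPM), LIN28B (65.2) and IGF2 stand far above GPC4, LIN28A and H19; points at 0.01 are libraries with 0 counts.

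Ordered by level per length, the 10 genes ran from ALB (2332 ± 212 TPM, SD over 6 libraries) and AFP (1945 ± 603) through GPC3 (702), EPCAM (344), IGF2BP1 (72.0), LIN28B (65.2), IGF2BP3 (19.1) and DLK1 (7.79) to SPINK1 (0.941) and H19 (0.148). ALB was the 41st and AFP the 50th most abundant of all 59608 genes by mean TPM, EPCAM the 321st and DLK1 the 8430th. The ranges over the 6 libraries overlapped for ALB and AFP, for IGF2BP1 and LIN28B, and for SPINK1 and H19, while every other pair of neighbours in this order was apart in all 6. ALB exceeded AFP in 4 of the 6 libraries. IGF2BP1 exceeded LIN28B in 6 of 6 despite the overlapping ranges.

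Regulators of AFP and ALB gave 1 gene at an unadjusted p under 0.05. This was ZHX2, a known repressor of AFP, at 20.03, 19.03 and 20.35 CPM with VEZF1-WT against 23.02, 25.38 and 21.14. All 3 libraries of VEZF1-WT lay below the other group, and the groups did not overlap for 7.36% of all genes tested. Their log2 fold change was −0.23 (standard error 0.08, edgeR's unadjusted p = 0.0194, adjusted p = 0.9996), which did not pass the adjustment, and 1.3% of all genes were lower at that unadjusted threshold. The repressors ZBTB20 and ZFHX3 did not reach it, and the median of the 4 repressors on the list was −0.09. Of 6 activators, with the nuclear receptor HNF4A (128 to 157 CPM) and the pioneer factor FOXA1 (23.4 to 29.5) among them, 0 did, with a median of −0.09.

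In the wider lists few genes had an unadjusted p under 0.05, where the background was 2.13%. Among 8 adult hepatocyte genes tested, PCK1, a gluconeogenic enzyme, was the only gene to do so and did not pass the adjustment, with 2.07, 1.74 and 1.95 CPM against 2.47, 3.40 and 2.41 in VEZF1-2A (log2 fold change −0.53, unadjusted p = 0.0176, adjusted p = 0.9996 in edgeR), and the list median was −0.09. Of 11 further liver cancer markers 10 were tested, led by PEG10, the matrix protein SPP1 (313 to 408 CPM) and the growth factor MDK (215 to 276 CPM), with none at an unadjusted p under 0.05 and a median of 0.06. The 7 other oncofetal genes gave 5 tested, none under that threshold, and a median of −0.03. Of 8 mRNAs known as IGF2BP clients 6 were tested with the same outcome and a median of 0.03, IGF2, ACTB (669 to 713 CPM) and SRF (53.2 to 60.0 CPM) being the most abundant. The 4 genes of the albumin family had a median of −0.16, midway between ALB (−0.07) and AFM (−0.24), and AFM and GC were at under 2 CPM. All 12 proliferation genes were tested and 0 had an unadjusted p under 0.05 (median 0.04), with MKI67, TOP2A and MCM3 highest.

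Markers of other cell types were mostly scarce. Fibroblast genes summed to 1.71 to 2.48 CPM in VEZF1-WT and 2.25 to 3.47 in VEZF1-2A, with COL1A1, PDGFRB and COL3A1 on top, LUM at 0 throughout and COL1A2, COL3A1 and DCN under 10 counts. Endothelial genes, PECAM1, VWF and CDH5 foremost, summed to 2.20 to 3.53 and 2.20 to 4.35 CPM. For neither list did a tested gene have an unadjusted p under 0.05, with 2 tested in each and medians of −0.47 and −0.34. The sum of the immune list, 657 to 776 CPM, came almost wholly from LYZ and CD68, both tested and without an unadjusted p under 0.05, and the defining PTPRC and CD3E had at most 4 counts.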

How the data were processed

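RNA of HepG2 cells was measured in 6 libraries, which their labels put into the VEZF1-WT and VEZF1-2A groups. The authors deposited 1 table of raw read counts per gene, as whole numbers without normalization; the build is GRCh38 per the submitters' processing notes, and the aligner, counting program, annotation and strand setting are not given in the sources used here. Of 59613 lines, 5 broken ones (ANK2) were left out. Counts were filtered with filterByExpr (minimum count 10, minimum total 15), scaled by TMM and tested two-sided with edgeR 4.0.16 in R 4.3.3, with the group alone as covariate and Benjamini-Hochberg adjustment across 19111 genes. The standard error is the log2 fold change divided by the root of the F statistic, and intervals use the fitted degrees of freedom. TPM was computed from the counts and the exon length in the table. Ratios within a library were compared by exact permutation. The limit given for a count of 0 was 6 counts (3 steps of 2 counts) and covers counting error only, while the intervals include the spread between libraries. Group tests rest on 3 libraries each.

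The 10 genes and all lists were chosen with earlier results of these data known. Named were the 10 genes, the partners in ratios, in each list the genes at an unadjusted p under 0.05 or else the 3 of highest CPM, the 3 genes closest to AFP and to ALB, and genes sharing exon positions. A few genes that this rule names or a list holds are not reported here. Lists were the albumin family, glypicans, AFP and ALB activators, AFP repressors, imprinted genes, the LIN28 and let-7 axis, IGF2BP clients, other oncofetal genes, other liver cancer markers, progenitor and cholangiocyte, adult hepatocyte, proliferation, fibroblast, endothelial and immune genes. Alternatives were DESeq2 size factors, no filter, DESeq2 1.42.0, limma voom 3.58.1, a replicate block, each library left out, and mitochondrial genes left out. The fit was tested on simulated data. Promoters and microRNAs are from RefSeq (GRCh38.p14), untranslated regions from GENCODE 29.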

Additional observations from a re-analysis of the deposited data

How the results depend on the processing

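No marker gene reached an adjusted p-value under 0.05 in any alternative; over 108 values of single genes, 96 kept their direction and 12 turned, all 12 of these when 1 library was left out. The count of all genes at an adjusted p under 0.05, 0 in the text, was 16 without the filter on low counts (38745 genes tested), 6 with the replicate block and 3 with DESeq2's Wald test; the count at an unadjusted p under 0.05, 408 in the text, was 896, 825 and 219 in these. The number of marker genes at an unadjusted p under 0.05 was 1 without the filter and 1 with the replicate block, SPINK1 each time (0.0140 and 0.0247). The causes were not tested.

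With each library left out, the genes at an unadjusted p under 0.05 numbered 292 to 973, the highest without replicate 3 of VEZF1-2A. The log2 fold changes ran from −0.30 to 0.41 for AFP, −0.16 to 0.0273 for ALB, −0.0932 to 0.0696 for GPC3, −0.16 to 0.15 for DLK1, −0.0482 to 0.00496 for EPCAM, −0.0132 to 0.0566 for LIN28B, −0.0529 to 0.00253 for IGF2BP1 and −0.0919 to 0.0271 for IGF2BP3; SPINK1 stayed below 0, from −1.19 to −0.42. The differences in log2 ratio ran from −0.11 to 0.40 for AFP over ALB, −0.0351 to 0.0796 for IGF2BP1 over IGF2BP3, −0.0802 to 0.0406 for IGF2BP3 over IGF2BP2 and −0.0281 to 0.19 for DLK1 over ALB, while H19 over IGF2 (0.81 to 1.88) and GPC3 over ALB (0.02 to 0.12) kept their sign.

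Libraries of the same replicate number deviated together with correlations of 0.08, 0.14 and 0.36, and 4 of 6 libraries correlated best with their own number. The labels do not say whether the number pairs the libraries, and these values do not settle it. The main tests left the number out, and the replicate block is the alternative that takes it in. Depth limits H19, SPINK1, LIN28A and MEG3, whose counts stay at or under 40 per library.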
